A study of Mus musculus with 22 samples.

Results

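The RNA of the subpolysome fraction was compared with total RNA in mouse bladder organoids that are wild type (WT) for Arid1a, the gene of a subunit of the BAF chromatin remodelling complex. The libraries were chosen by their titles: 3 of the WT subpolysome fraction and 3 of WT total RNA, 6 of the 22 libraries of the series. The sources label all of them as primary bladder urothelial organoids, cultures grown from bladder epithelium, with the genotype ARID1A WT. For the fraction, organoid lysates were separated on a sucrose gradient and the subpolysome part was collected, whereas total RNA was extracted directly from organoids. 3 further groups served for comparison: 3 WT polysome libraries from the same kind of gradient, and 3 total RNA and 3 subpolysome libraries of organoids labelled ARID1A KO. No treatment is labelled for any of these groups. The sources used here do not give strain, age, the number of animals, how the knockout was made, or where the gradient was divided. The labels number the replicates but do not say that they came from separate animals or cultures, so a p-value reflects how far these libraries vary among themselves, and that variation may be technical.

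In a sucrose gradient an mRNA sediments faster the more ribosomes it carries. Polysome fractions hold mRNAs with several ribosomes, and the lighter fractions hold RNA bound to no ribosome, to a ribosomal subunit or to a single ribosome. TOP mRNAs, which start with a C followed by a run of pyrimidines (the 5' terminal oligopyrimidine tract), encode the ribosomal proteins and the translation elongation factors, and are known for moving as a group between polysomes and light fractions with the activity of mTORC1 and the RNA-binding protein LARP1. Long noncoding RNAs carry few ribosomes, an mRNA with a short reading frame has room for few, and mRNAs of secreted proteins are translated at the endoplasmic reticulum (ER).

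Pyrimidine runs at or near the annotated start are shown for 6 members of the TOP class, because this class stood highest in the subpolysome fraction. Each window holds 30 bases around a pyrimidine run, 5' to 3' on the strand of the gene, read from RefSeq start windows of the GRCm38.p6 build. Capitals mark the run, a C followed by at least 6 pyrimidines (C or T), searched from the annotated first base on. The marked stretch begins at that base in Fau, Rps18, Rps6 and Eif3f. In these windows pyrimidines also stand directly before it, so the run itself reaches further upstream. The stretch begins at base 7 in Rpl39 and at base 30 in Rpl34, the 1 ribosomal protein gene that did not pass the test.
Fau: ccccacttCTTCCTCTTTCTTgactccatc
Rps18: cttccgctCTCTCTTCCacaggaggcctac
Rps6: agtcgggcCTCTTTTTCgtgacgcctccca
Eif3f: taggctctCTCTCTTTCTCggcaagatggc
Rpl39: tctagcgaCTTCTTCTaatcgcgttcttcc
Rpl34: gtatggtggCCTTCTTCTgctctgtgtttt
The windows lie at chr19:6057939-6057968 (+ strand) for Fau, chr17:33955644-33955673 (- strand) for Rps18, chr4:86857346-86857375 (- strand) for Rps6, chr7:108934407-108934436 (+ strand) for Eif3f, chrX:37085195-37085224 (- strand) for Rpl39 and chr3:130730288-130730317 (- strand) for Rpl34. Of 82 tested TOP genes with a RefSeq window, 48 (58.5%) held such a run within 50 bases from an annotated start on. The share was 22.3% of the tested genes outside the TOP lists, and 20.6% of all RefSeq windows taken singly. A C followed by at least 4 pyrimidines exactly at the annotated start was found in 17 (20.7%) of the 82. It was found in 2.88% of the tested genes outside the TOP lists, and in 2.51% of all windows taken singly. Only the gene's strand was searched, the longer run includes some of the shorter, and the annotated start may differ from the one used in these cells. Outside the TOP lists the 2271 tested genes with the longer run had a median log2 fold change of 0.02, subpolysome against total RNA, and the 7918 without it had -0.04. The run was chosen after the values were seen.

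The 3 total RNA libraries held 66227600 to 72598210 counts and the 3 subpolysome libraries 45190903 to 48441105. Counts on Rn45s, the ribosomal RNA precursor, made up 2.44 to 2.58% of the total RNA libraries and 0.439 to 0.983% of the subpolysome libraries. All 11 basal and all 15 luminal urothelial markers, such as Krt5, Trp63, Upk2 and Gata3, were above 1 CPM (counts relative to library size) in every library of both groups. Summed markers of fibroblasts, smooth muscle, endothelium and immune cells each stayed at or below 11.6 CPM, red blood cell markers at or below 0.133 CPM, and Ptprc, Cd3e and Kdr had no count. Levels below are CPM scaled by TMM factors, which set the bulk of genes level between the groups, so each value is relative to the other RNAs of its library. The amount of RNA in the fraction was not measured, and in bulk libraries fewer cells of a type and less RNA per cell cannot be told apart.

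Most genes differed between the fraction and total RNA. Of 12924 genes tested with edgeR's quasi-likelihood test, 8746 (67.7%) passed an adjusted p (Benjamini-Hochberg) of 0.05, 4215 (32.6%) of them higher in subpolysomes and 4531 (35.1%) lower. At a change of at least 2-fold, 2082 (16.1%) were higher and 1518 (11.7%) lower. All 3 subpolysome libraries lay above all 3 total RNA libraries for 4471 genes (34.6%) and below them for 4902 (37.9%). Scaled to library totals alone, the same 12924 genes gave 1319 higher and 8792 lower, and the median gene moved from -0.03 to -0.99 (log2). Directions are therefore given relative to the median gene, and a log2 value between 0 and about this shift changes sign on library totals. Gene classes are described by counts and medians beside these shares, with no test of the class. A member below the count filter was not tested, and one that reached it in 1 kind of RNA alone had to differ.

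mRNAs of cytosolic ribosomal proteins were the class with the highest median. Of the 78 genes, 77 rose in subpolysomes, 77 of them at least 2-fold, and 0 fell. Their median log2 fold change was 2.91, a median difference of 7.53 times, beside -0.03 for all genes, and 1.95 on library totals. The median was 2.26 above that of genes whose proteins have similar length. These genes took 9.43, 9.19 and 9.45% of the counts of the total RNA libraries, 33.7, 36 and 37% in subpolysomes and 4.51, 5.14 and 5.08% in polysomes. The subpolysome share of 35.6 ± 1.73% (SD, n = 3) thus stood far outside the spread of the 9.35 ± 0.146% in total RNA, and every subpolysome library lay above every other WT library.

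**Figure D1:**
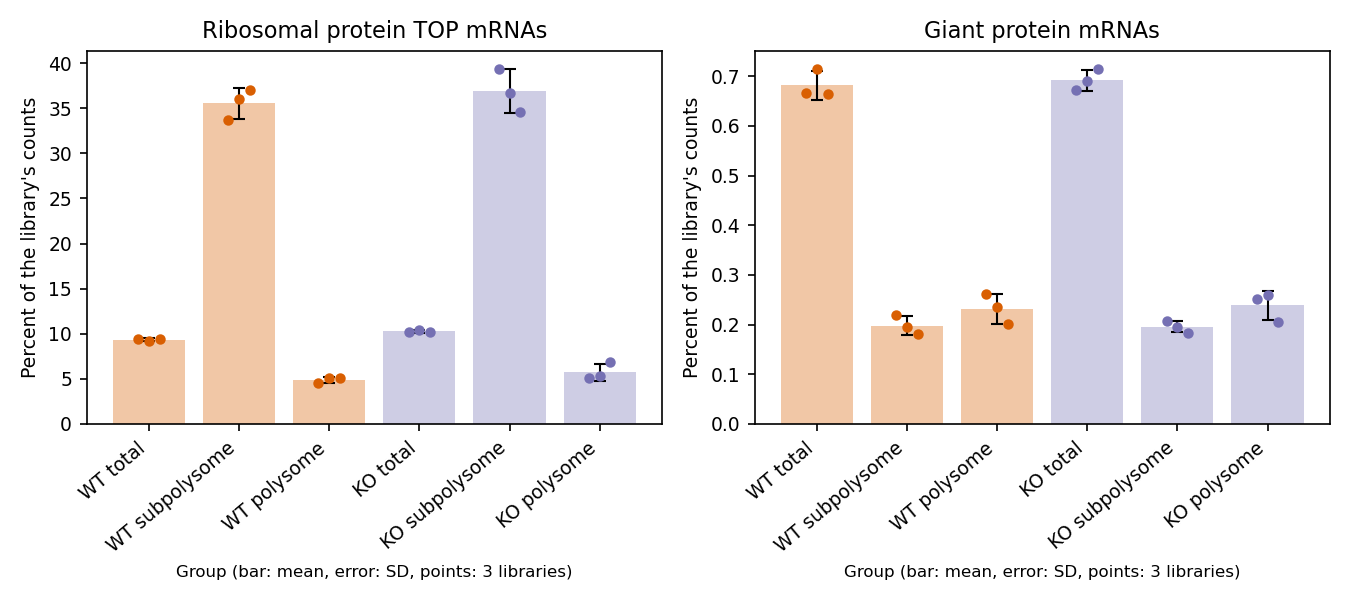
Percent of each library's own counts on the 78 ribosomal protein genes (left) and on the giant protein genes (right) in WT and KO total RNA, subpolysomes and polysomes; bars are means, error bars SD and points the 3 libraries of a group. Ribosomal protein mRNAs hold 33.7 to 37% of WT subpolysome counts against 9.19 to 9.45% of WT total RNA.

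Rpl41, which encodes the smallest ribosomal protein (chromosome 10, 128548114 to 128549305, GRCm38), had 648, 616 and 619 CPM in total RNA and 8066, 10073 and 11043 CPM in subpolysomes. All subpolysome libraries lay above all total RNA libraries, a rise of 15.5 times (log2 3.95, SE 0.13, adjusted p = 2.65e-10). Rpl7, of the large subunit, had 1799, 1905 and 1956 CPM in total RNA and 21105, 26071 and 25798 CPM in subpolysomes (log2 3.69, SE 0.12, adjusted p = 2.65e-10). Rpl13a, which is also known as part of a regulatory complex on mRNA, had 2131, 2034 and 2125 CPM in total RNA and 19115, 23583 and 25711 CPM in subpolysomes (log2 3.44, SE 0.13, adjusted p = 3.70e-10), again without overlap.

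Rps6, the small subunit protein phosphorylated by S6 kinase (chromosome 4, 86854660 to 86857412), had 638, 615 and 608 CPM in total RNA and 2352, 2275 and 2283 CPM in subpolysomes, a rise of 3.71 times (log2 1.89, SE 0.08, adjusted p = 6.85e-10). Rplp0, of the ribosomal stalk, had 3611, 3618 and 3587 CPM in total RNA and 11137, 11694 and 13658 CPM in subpolysomes (log2 1.75, SE 0.10, adjusted p = 1.18e-08). With Rps6 it stood near the lower end of the class, yet its libraries did not overlap either. Rpl39 and the sequences shown above from Fau and Rps18 belong to the upper end, with log2 3.50, 3.42 and 3.35. Fau and Rps18 were named after their values were seen.

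Rpl34 and Rpl26 held few counts for ribosomal protein genes. Rpl34 had 2.25, 2.12 and 2.24 CPM in total RNA and 2.89, 2.44 and 2.56 CPM in subpolysomes and did not pass (log2 0.26, SE 0.23, adjusted p = 0.347), whereas on library totals it passed as lower (-0.70, adjusted p = 0.0174). Rpl26, the highest of the list, had 0.00981, 0.0653 and 0.0507 CPM in total RNA and 0.545, 0.907 and 0.894 CPM in subpolysomes (log2 4.17, SE 0.76, adjusted p = 0.000336), so its fold rests on levels below 1 CPM. Ribosomal protein genes share sequence with many processed pseudogenes, and how reads matching several places were counted is not given, so the level of any single one of them is uncertain.

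Against polysomes the same class had a median of 3.61, with 77 of 78 higher in subpolysomes (of all 12847 genes tested there, 67% passed, 32.7% higher and 34.3% lower) and Rpl34 lower. Polysomes themselves stood below total RNA, with a median of -0.76 and 62 of 77 tested members lower (of all 13020 genes tested there, 70.8% passed, 35.6% higher and 35.2% lower). These comparisons share libraries with the first and are given as values only. On library totals the direct comparison with polysomes gave 1595 genes higher and 7955 lower, whereas the median gene of polysomes against total RNA moved only from 0.00 to -0.11. In the polysome fraction relative to total RNA, Rpl41 was at -2.29, Rplp0 at -2.44, Rps6 at -1.32, Rpl13a at -0.71 and Rpl7 at 0.20, the last not past the threshold.

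The other TOP mRNAs, which encode elongation factors, initiation factor subunits and a few further proteins, followed with a median of 1.97. Of 34 tested, 30 rose, 2 fell and 2 did not pass, and they took 13.7 ± 0.147% (SD, n = 3) of subpolysome counts, 5.73 ± 0.128% of total RNA and 2.11 ± 0.0724% of polysomes. Eef2, which moves the ribosome along the mRNA (chromosome 10, 81176631 to 81182498), had 7150, 7712 and 7001 CPM in total RNA and 41947, 52660 and 56767 CPM in subpolysomes, a rise of 6.92 times (log2 2.79, SE 0.13, adjusted p = 2.12e-09). Eef1a1, which delivers aminoacyl-tRNA, had 12621, 13833 and 13280 CPM in total RNA and 47866, 47142 and 47559 CPM in subpolysomes (log2 1.84, SE 0.10, adjusted p = 6.85e-09). In both, every subpolysome library was above every total RNA library, and in polysomes both were lower than in total RNA (log2 -2.03 and -2.51).

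Tpt1, the translationally controlled tumour protein, had 2526, 2602 and 2698 CPM in total RNA and 14889, 18157 and 18798 CPM in subpolysomes (log2 2.73, SE 0.11, adjusted p = 7.59e-10). Pabpc1, the cytoplasmic poly(A)-binding protein, had 2025, 2033 and 1905 CPM in total RNA and 8110, 7899 and 7497 CPM in subpolysomes (log2 1.98, SE 0.09, adjusted p = 1.38e-09). Groups did not overlap for either of them. The exceptions were Aplp2, an amyloid precursor-like membrane protein, with 393, 425 and 418 CPM in total RNA and 123, 126 and 104 CPM in subpolysomes (log2 -1.81, SE 0.09, adjusted p = 2.45e-09), and the RNA-binding protein Ybx1 (log2 -0.44, adjusted p = 0.00042), which both fell. The values of Cirbp and Tmem55b, which did not pass, were -0.16 and 0.22, the latter -0.73 on library totals. Cirbp passed without subpolysome library 3 (-0.37, adjusted p = 0.00846) and on library totals (-1.14, adjusted p = 1.01e-05). Tmem55b passed without subpolysome library 2 (0.36, adjusted p = 0.00844), with a filter of 5 CPM (0.30, adjusted p = 0.0459) and as lower on library totals (adjusted p = 0.00113). Ybx1, Cirbp and Tmem55b were named after their values were seen.

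Translation initiation factors divided by subunit. Of 39 tested, 23 rose and 12 fell, and the median was 0.57 (-0.39 on library totals, a change of sign). Eif4b, a cofactor of the helicase eIF4A that is also on the TOP list, was the highest, with 1012, 1103 and 1012 CPM in total RNA and 8509, 10038 and 10281 CPM in subpolysomes (log2 3.20, SE 0.11, adjusted p = 2.77e-10). Eif3f, a TOP subunit of eIF3, had 679, 704 and 635 CPM in total RNA and 2649, 2832 and 2724 CPM in subpolysomes (log2 2.02, SE 0.08, adjusted p = 7.10e-10). Eif3b, a core eIF3 subunit that is not on the TOP list, was the lowest, with 221, 229 and 211 CPM in total RNA and 80.3, 78.9 and 74.4 CPM in subpolysomes (log2 -1.50, SE 0.07, adjusted p = 2.42e-09). Subunits of 1 complex thus lay on both sides of the median gene.

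**Figure D2:**
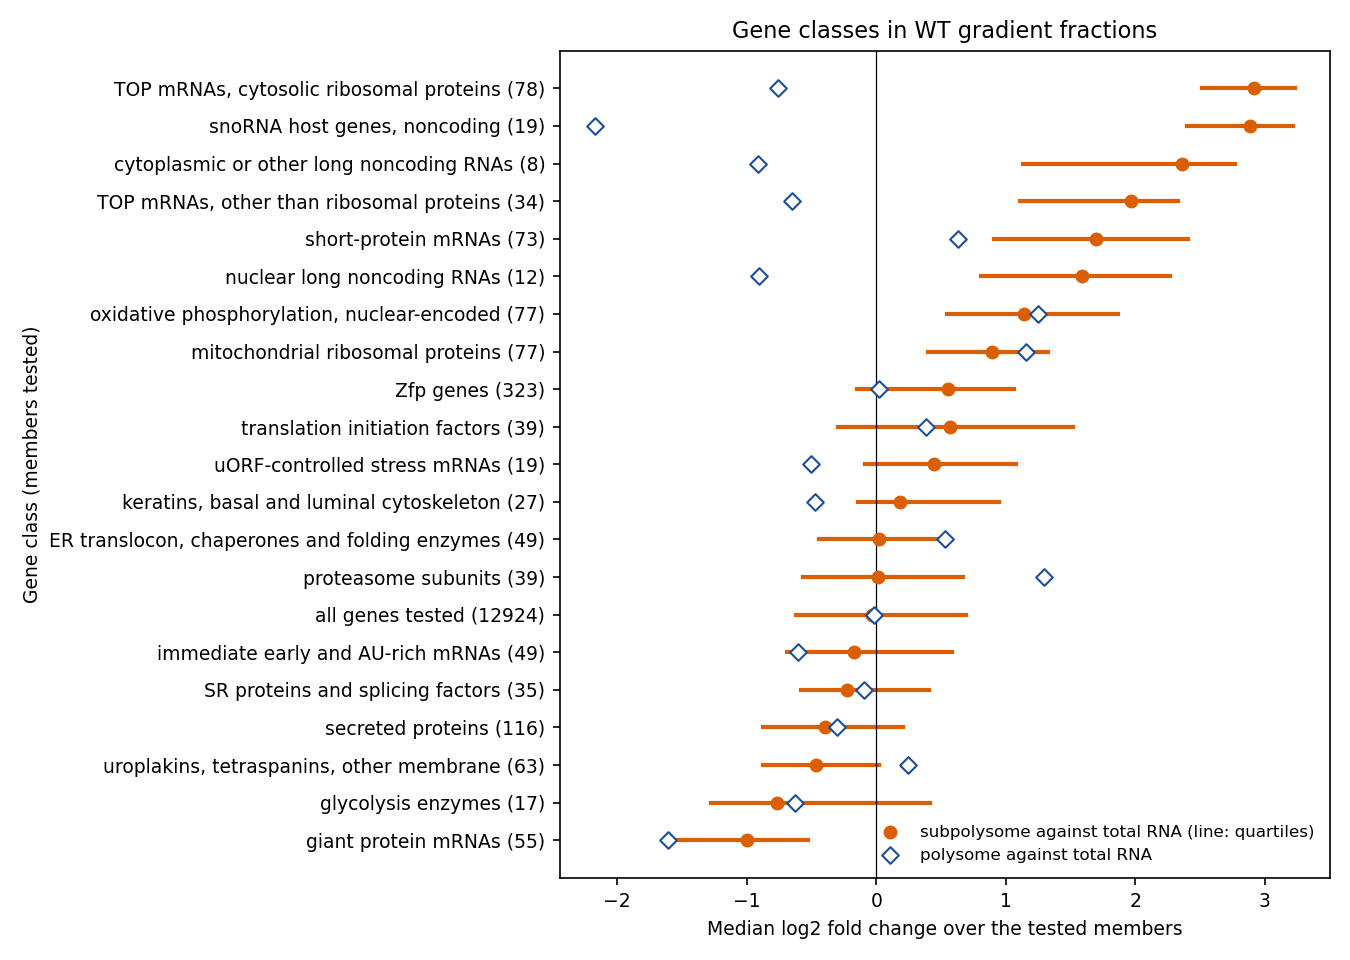
Median log2 fold change of the tested members of each gene class, WT subpolysome against total RNA (filled circles, with the line spanning the quartiles) and WT polysome against total RNA (open diamonds), with the number of members tested in subpolysomes in brackets. Ribosomal protein mRNAs sit at 2.91 in subpolysomes and -0.76 in polysomes, mitochondrial ribosomal protein mRNAs at 0.89 and 1.16, and giant protein mRNAs at -1.0 and -1.61; both sets share the total RNA libraries.

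Noncoding genes that host small nucleolar RNAs (snoRNAs) had a median near that of the ribosomal protein class. Several of their spliced transcripts are known to start like TOP mRNAs and to be degraded once ribosomes reach them. Of 24 listed, 19 were tested, 18 rose, 0 fell, and the median was 2.89 (1.94 on library totals). Gas5 (chromosome 1, 161034422 to 161038539) had 195, 201 and 212 CPM in total RNA and 1937, 2477 and 2568 CPM in subpolysomes, a rise of 11.5 times (log2 3.52, SE 0.12, adjusted p = 2.65e-10). Snhg1 had 39.8, 34.4 and 41.9 CPM in total RNA and 370.2, 425 and 491 CPM in subpolysomes (log2 3.47, SE 0.12, adjusted p = 2.78e-10), and 1500012F01Rik, the older symbol of Zfas1, had 75.2, 75.3 and 82.2 CPM in total RNA and 690.1, 746 and 798 CPM in subpolysomes (log2 3.26, SE 0.09, adjusted p = 2.65e-10). Groups did not overlap for these 3 genes.

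Snhg14 rested on levels of at most 1.81 CPM (log2 4.14, SE 0.60), and Mir17hg, a microRNA host on the same list with at most 0.678 CPM, did not pass (log2 1.07, adjusted p = 0.11). Against polysomes all 19 tested hosts were higher in subpolysomes, with a median of 5.09, and all 18 tested hosts were lower in polysomes than in total RNA, with a median of -2.17. Gas5, for example, was at -2.16 in polysomes relative to total RNA.

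Long noncoding RNAs known to act in the nucleus were also higher, though less evenly. Of 22 listed, 12 were tested, 10 rose and 1 fell, with a median of 1.59 (0.63 on library totals). Above the median of all genes it was 1.62, and 0.75 without a filter on low counts. Malat1, a nuclear speckle RNA (chromosome 19, 5795690 to 5802672), had 10.7, 9.28 and 9.64 CPM in total RNA and 94.4, 120.2 and 129 CPM in subpolysomes, a rise of 11.6 times (log2 3.54, SE 0.12, adjusted p = 3.28e-10). Neat1, the scaffold of paraspeckles, had 174, 108 and 124 CPM in total RNA and 367, 251 and 259.6 CPM in subpolysomes (log2 1.11, SE 0.17, adjusted p = 8.35e-05), without overlap, although on library totals the difference was 0.17 and did not pass (adjusted p = 0.47). Tug1 was at 0.29 (adjusted p = 0.0155) and at -0.66 on library totals, and Peg13, an imprinted RNA, was lower (log2 -0.67, SE 0.15, adjusted p = 0.00176). The call of Tug1 was lost, at adjusted p = 0.0762 and 0.0692, without total RNA library 2 or subpolysome library 2.

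Among 8 tested cytoplasmic or other long noncoding RNAs, 6 rose and 0 fell, with a median of 2.36 (1.41 on library totals). Above the median of all genes it was 2.39, and 1.88 to 2.74 over the alternatives. H19, an imprinted RNA that carries a microRNA, had 33.5, 23.8 and 19.8 CPM in total RNA and 160.3, 129 and 152 CPM in subpolysomes (log2 2.51, SE 0.16, adjusted p = 3.11e-08). 2900097C17Rik, the older symbol of Norad, had 65.8, 72.7 and 67.9 CPM in total RNA and 332, 325 and 298 CPM in subpolysomes (log2 2.21, SE 0.08, adjusted p = 3.43e-10). 1700020I14Rik had 29.1, 25.6 and 28.6 CPM in total RNA and 175, 179 and 196 CPM in subpolysomes (log2 2.72, SE 0.08, adjusted p = 2.65e-10), and Dleu2 was at 3.03. All 3 RNAs given with their libraries were without overlap between the groups. Mir22hg (-0.14, adjusted p = 0.209) and Trp53cor1 (0.21, adjusted p = 0.548; -0.10 without subpolysome library 2) did not pass, but on library totals both passed as lower (-1.10, adjusted p = 2.18e-06, and -0.74, adjusted p = 0.0436). Trp53cor1 was named after its values were seen.

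By annotated type, 83 of 128 tested lincRNA genes rose and 2 fell (median 1.52), as did 67 and 3 of 113 antisense genes (median 1.29), beside 3874 and 4504 of 12319 protein-coding genes (median -0.07). Any lincRNA or antisense gene that reached the filter only through subpolysomes had to be higher. How many did was not counted, so these counts are no result about either type. Without stated strand, reads of an antisense gene and of its partner cannot be told apart, which applies to Toporsos, the antisense neighbour of Topors and one of the 10 highest genes (log2 3.60). Of 36 Snora and 74 Snord genes, 9 and 7 passed the filter. They lay in the same range, with 7 and 7 higher in subpolysomes (medians 2.48 and 2.62). Of these tested genes, 7 Snora and 3 Snord were also tested in polysomes against total RNA. Genes that reached the filter only through subpolysomes had to be higher there, so these counts are no result about the class. Snora68, for one, had 0.353, 0.359 and 0.355 CPM in total RNA and 3.95, 3.25 and 4.47 CPM in subpolysomes. Since snoRNAs lie inside host genes, their reads may come from host transcripts, and their part in these values was not tested.

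Rpph1 and Rmrp, RNAs of stable ribonucleoprotein enzymes, went the other way in WT. Rpph1, the RNA of RNase P (chromosome 14, 50807449 to 50807767), had 11, 12.2 and 13.5 CPM in total RNA and 0.654, 0.625 and 1.97 CPM in subpolysomes, which was 11.4-fold lower (log2 -3.51, SE 0.33, adjusted p = 9.37e-07). Rmrp, the RNA of RNase MRP, had 2.68, 1.95 and 4.06 CPM in total RNA and 0.818, 0 and 0.771 CPM in subpolysomes (log2 -2.43, SE 0.64, adjusted p = 0.00458; adjusted p = 0.0953 with DESeq2). The vault RNA Vaultrc5, at most 1.36 CPM, was higher (log2 2.01, SE 0.51, adjusted p = 0.00355; 0.0684 on library totals). In polysomes all 3 were lower than in total RNA (log2 -6.39, -4.99 and -5.79), and no other small RNA of this list was tested. Against polysomes directly, all 3 were higher in WT subpolysomes (median 2.86). In KO subpolysomes against total RNA, Rpph1 was at -1.36 (adjusted p = 0.00611) and Rmrp at -0.66, which did not pass (adjusted p = 0.307).

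**Figure D3:**
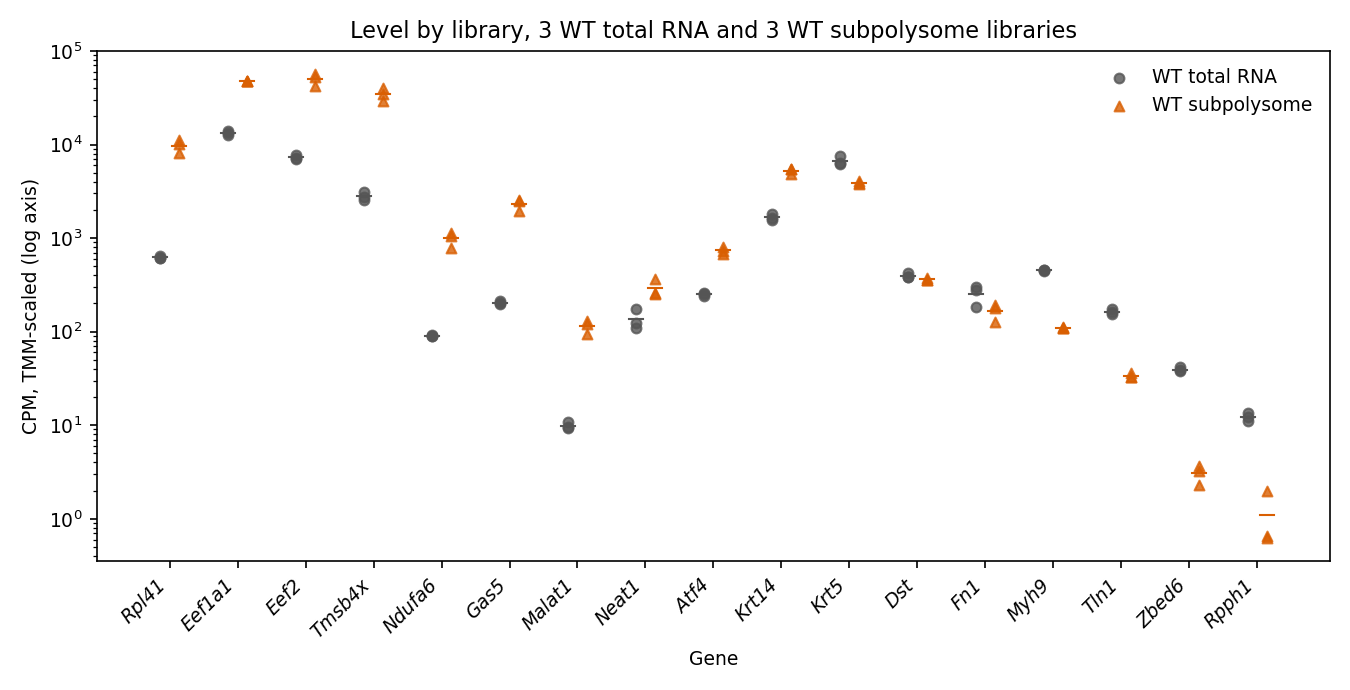
Level of 17 genes in each of the 3 WT total RNA libraries (grey circles) and 3 WT subpolysome libraries (orange triangles), in TMM-scaled CPM on a log axis, with a short line at each mean. The fractions are apart for every gene drawn except Fn1, which overlaps between 185 and 191 CPM, while Dst has 355 to 375 CPM in subpolysomes against 382 to 427 CPM in total RNA and did not pass the test.

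Across genes with an annotated protein the difference between the fraction and total RNA ran with the length of the encoded protein. The median log2 fold change was 1.69 for 266 genes with proteins under 100 residues (219 higher, 6 lower), 0.70 for 1356 of 100 to below 200 residues (852 and 177) and 0.11 for 3567 of 200 to below 400 (1354 and 1045). It was -0.18 for 4559 of 400 to below 800 (1154 and 1840), -0.43 for 2049 of 800 to below 1600 (259 and 1079) and -0.80 for 533 of 1600 and more (43 and 358). On library totals the medians of the shortest class and of those from 100 to below 400 residues were 0.72, -0.26 and -0.84, so only the shortest class kept a positive sign, while the order of the classes was the same. Spearman's rho between protein length and log2 fold change was -0.39 over 12330 genes, and -0.43 for transcript length over 12846 genes, noncoding ones included. It was -0.38 for protein length over the 12218 genes outside the TOP lists. These are across genes, which share the same libraries and are not independent replicates, so no p is given.

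TOP genes stood above the other genes of their own length: their medians were 3.16, 2.90, 2.33 and 1.91 in the classes from under 100 to 400 and more but below 800 residues, against 1.59, 0.66, 0.10 and -0.19 for genes outside the TOP lists. Among the latter, a short transcript went with a higher value at equal protein length. For proteins under 100 residues the median was 1.78 with transcripts under 2 kb (196 genes) and 0.75 with longer ones (60 genes), and for 200 to below 400 residues it was 0.38 (1663 genes) and -0.12 (1871 genes). Polysomes relative to total RNA did not follow the same course at the short end. Their medians outside the TOP lists were 0.39, 0.82, 0.52, -0.12, -0.79 and -1.40 from the shortest to the longest class.

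**Figure D4:**
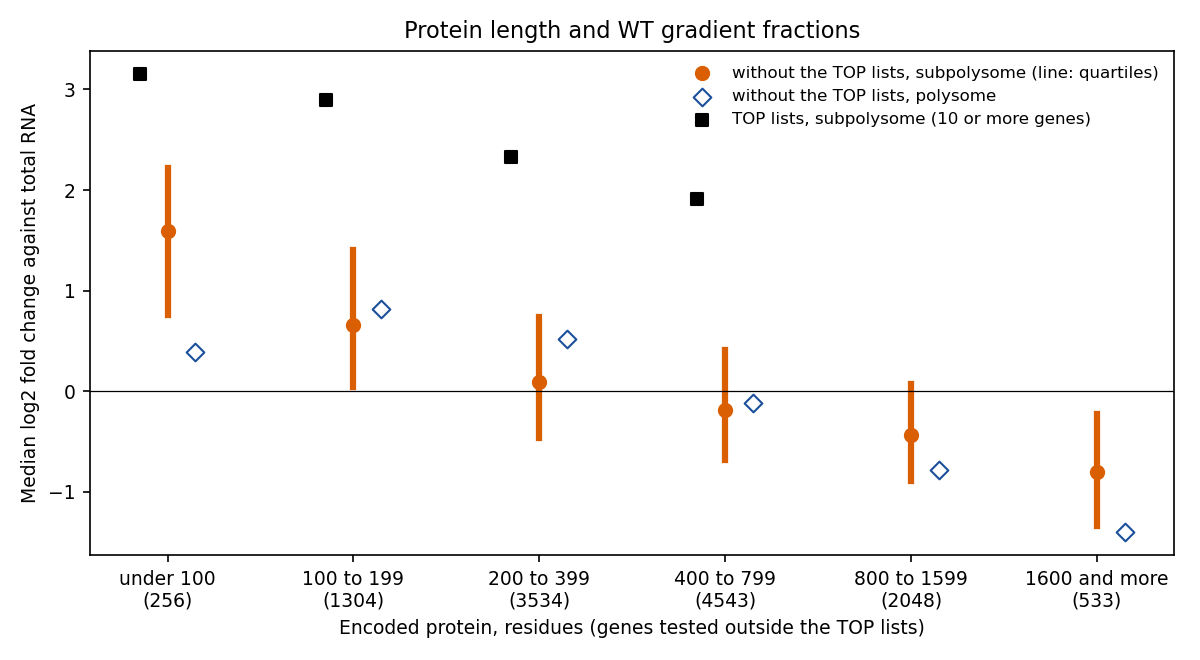
Median log2 fold change against WT total RNA by length of the encoded protein, for genes outside the TOP lists in subpolysomes (filled circles, line spanning the quartiles) and in polysomes (open diamonds), and for TOP genes in subpolysomes (squares, classes with 10 or more genes). Outside the TOP lists the subpolysome median goes from 1.59 in the shortest to -0.80 in the longest class, and the TOP genes lie above each class they fall in.

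The short-protein list showed the upper end of this gradient. Of 73 tested genes, 64 rose and 3 fell, with a median of 1.70 (0.74 on library totals). The list shares members with the TOP lists, such as Rpl41, its highest. Outside the TOP lists the median of all tested genes with proteins under 100 residues was 1.59. Tmsb4x, the actin-monomer binding thymosin of 44 residues (chromosome X, 167207093 to 167209315), had 2724, 2574 and 3125 CPM in total RNA and 28850, 34532 and 40304 CPM in subpolysomes, a rise of 12.3 times (log2 3.62, SE 0.14, adjusted p = 6.09e-10). Tmsb10, its relative of the same length, had 216, 227 and 253 CPM in total RNA and 708, 868 and 944 CPM in subpolysomes (log2 1.85, SE 0.11, adjusted p = 1.23e-08). Myeov2, a small COP9 signalosome subunit of 57 residues and one of the 10 highest genes, had 37.9, 36.9 and 41.4 CPM in total RNA and 408, 489 and 549.6 CPM in subpolysomes (log2 3.64, SE 0.11, adjusted p = 2.65e-10). None of these 3 overlapped between the groups.

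Short proteins did not all behave alike. S100a6, a calcium-binding protein of 89 residues, had 3761, 3625 and 4017 CPM in total RNA and 6305, 6979 and 8162 CPM in subpolysomes (log2 0.91, SE 0.11, adjusted p = 7.33e-06), and on library totals it was at -0.05. Pfn1, the actin-binding profilin of 140 residues, fell, with 575, 599 and 574 CPM in total RNA and 315, 279 and 304 CPM in subpolysomes (log2 -0.96, SE 0.07, adjusted p = 1.58e-07). The libraries of Pfn1 were apart in the direction opposite to Tmsb4x. In polysomes relative to total RNA, Tmsb4x and Tmsb10 were at -1.58 and -1.18, S100a6 and Pfn1 at 1.39 and 1.05.

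mRNAs of mitochondrial proteins, most of them short, were higher than total RNA in both gradient fractions, relative to the median gene. Of 77 tested oxidative phosphorylation subunits 64 rose and 5 fell in subpolysomes (median 1.14, and 0.18 on library totals). Relative to genes of the same protein length classes their subpolysome median was 0.37. In polysomes 68 of the 77 were higher than in total RNA (background 35.6%; median 1.25). Ndufa6, a complex I subunit of 131 residues, had 88.7, 89.9 and 92.8 CPM in total RNA and 790.2, 1123 and 1058 CPM in subpolysomes (log2 3.45, SE 0.12, adjusted p = 3.43e-10). Cox4i1, of cytochrome oxidase, had 334, 332 and 344 CPM in total RNA and 2233, 2925 and 3067 CPM in subpolysomes (log2 3.03, SE 0.12, adjusted p = 5.44e-10). Both were apart from total RNA in every library. Ndufs1, the largest complex I subunit with 727 residues, was the lowest, with 32.2, 33.7 and 31.3 CPM in total RNA and 20.3, 19 and 20.1 CPM in subpolysomes (log2 -0.71, SE 0.09, adjusted p = 1.34e-05), and Atp5b, Atp5g3, Ndufv1 and Ndufa9, named after their values were seen, fell too, by 0.60, 0.58, 0.42 and 0.29 on the log2 scale.

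Mitochondrial ribosomal proteins were close to these: 65 of 77 rose and 3 fell (median 0.89, and -0.06 with a change of sign on library totals). Relative to genes of the same protein length classes their subpolysome median was 0.40. Against total RNA, 73 of 77 were higher in polysomes (median 1.16). Mrpl33, with 65 residues, had 45.4, 43.8 and 47.5 CPM in total RNA and 303, 309 and 371 CPM in subpolysomes (log2 2.85, SE 0.09, adjusted p = 2.65e-10). Mrpl3, with 348 residues, had 42.6, 44.8 and 45.5 CPM in total RNA and 31.3, 26.7 and 32.3 CPM in subpolysomes (log2 -0.56, SE 0.09, adjusted p = 0.000144). Relative to the median gene, mRNAs of both kinds of ribosome were thus higher in subpolysomes than in total RNA, whereas in polysomes the cytosolic set was lower (-0.76) and the mitochondrial set higher.

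Proteasome subunits, of intermediate length, centred on the median gene: 19 of 39 rose and 15 fell (median 0.01, and -0.95 on library totals; above the median of all genes it was 0.04, and -0.02 to 0.13 over the alternatives, below 0 without subpolysome library 3). In polysomes 35 of the 39 were higher than in total RNA (median 1.29), and against polysomes 33 were lower in subpolysomes (background 34.3%). Shfm1, the smallest subunit with 70 residues, had 194, 176 and 193 CPM in total RNA and 844, 939.5 and 1040 CPM in subpolysomes (log2 2.33, SE 0.09, adjusted p = 6.09e-10). Psmb1, a core particle subunit, had 220.0, 223 and 224 CPM in total RNA and 771, 940.2 and 974 CPM in subpolysomes (log2 2.01, SE 0.09, adjusted p = 1.96e-09). Psmd3, a lid subunit of 530 residues, had 137, 135 and 129 CPM in total RNA and 44.1, 37.4 and 37.1 CPM in subpolysomes (log2 -1.76, SE 0.08, adjusted p = 2.56e-09). The libraries of these 3 were apart, 2 upward and 1 downward.

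Giant proteins were at the lower end of the length gradient. Of 64 listed genes 55 were tested, 42 fell and 3 rose, with a median of -1.0, and -0.26 relative to the other genes of their length classes. Ahnak entered that last value among short proteins, since the annotated transcript taken for it encodes 150 residues. They took 0.682 ± 0.0293% (SD, n = 3) of total RNA counts and 0.198 ± 0.0198% of subpolysome counts. Myh9, nonmuscle myosin heavy chain (chromosome 15, 77760587 to 77842175), had 454, 454 and 445 CPM in total RNA and 110.4, 109.9 and 111 CPM in subpolysomes, which was 4.09-fold lower (log2 -2.03, SE 0.07, adjusted p = 2.77e-10). Plec, the cytolinker plectin, had 112, 109 and 100.4 CPM in total RNA and 36.4, 32.5 and 35.6 CPM in subpolysomes (log2 -1.62, SE 0.08, adjusted p = 3.04e-09). Kmt2d, a histone H3 lysine methyltransferase, had 44.9, 59.3 and 47 CPM in total RNA and 16.1, 18 and 15 CPM in subpolysomes (log2 -1.62, SE 0.12, adjusted p = 1.13e-07). No subpolysome library reached the lowest total RNA library in any of these 3.

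Both Dst and Ahnak, among the most abundant members, did not pass relative to the median gene, but passed as lower on library totals (-1.09, adjusted p = 2.87e-07, and -1.04, adjusted p = 2.84e-07). Dst, the cytolinker dystonin of hemidesmosomes with 7393 residues, had 382, 427 and 384 CPM in total RNA and 356, 375 and 355 CPM in subpolysomes (log2 -0.14, SE 0.07, adjusted p = 0.121), and Ahnak, a scaffold protein, had 319.6, 369 and 332 CPM in total RNA and 311, 322 and 336 CPM in subpolysomes (log2 -0.08, SE 0.08, adjusted p = 0.395). The libraries of Ahnak overlapped, and those of Dst were close to each other without overlap. Macf1, a relative of Dst with 7355 residues, fell (log2 -0.65, SE 0.09, adjusted p = 3.52e-05). Mki67, the proliferation marker, was the highest (log2 0.98, SE 0.30, adjusted p = 0.012), but its total RNA libraries ranged from 7.36 to 14.3 CPM and overlapped the subpolysome libraries at 12.7 to 29.3 CPM. Its call was lost without total RNA library 2 (adjusted p = 0.0605), without subpolysome library 1 (0.0799), on library totals (0.914) and without a filter on low counts (0.142). Usp34 (0.41) and Nbeal1 (0.32), named after their values were seen, also rose but were at -0.56 and -0.65 on library totals. The call of Nbeal1 was lost without any 1 of total RNA libraries 1 to 3 or subpolysome libraries 2 and 3 (adjusted p from 0.0563 to 0.13), and with no filter (0.0633) or all 18 organoid libraries in the fit (0.153).

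The same giant mRNAs were lower still in polysomes: 52 of 55 were below total RNA and 0 above (median -1.61). Set against polysomes directly, 43 of 55 were higher in subpolysomes (background 32.7%; median 0.66), but on library totals that median was -0.19, so this direction depends on the scaling. Their share of counts was 0.232 ± 0.0302% (SD, n = 3) in polysomes, near the subpolysome share. Total RNA thus held more of them than either gradient fraction by both scalings.

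Besides these lists, the 10 lowest well-expressed genes were mostly mRNAs of long proteins. Tln1, the integrin adaptor talin with 2541 residues, had 154, 173 and 162 CPM in total RNA and 36.4, 32.6 and 32.4 CPM in subpolysomes (log2 -2.27, SE 0.08, adjusted p = 3.55e-10). Celsr1, an atypical cadherin of planar cell polarity, had 57.2, 56.5 and 57.3 CPM in total RNA and 10.5, 10.9 and 10.3 CPM in subpolysomes (log2 -2.43, SE 0.09, adjusted p = 3.43e-10). Cad, the multifunctional enzyme that starts pyrimidine synthesis, had 48.1, 51.4 and 47 CPM in total RNA and 11.7, 6.60 and 10.5 CPM in subpolysomes (log2 -2.35, SE 0.16, adjusted p = 5.95e-08). In each of them the subpolysome libraries were all below the total RNA libraries.

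Kif26b (log2 -2.28), a kinesin-like protein, Tiam1 (-2.49), a Rac exchange factor, Irgq (-2.47), Plcb3 (-2.37), a phospholipase C, and Aqr (-2.27), a splicing helicase, belonged to the 10 as well. Wars, the tryptophanyl-tRNA synthetase, fell (log2 -2.31, SE 0.09, adjusted p = 4.04e-10), and its protein has 481 residues. Zbed6, a zinc finger gene derived from a transposon, was the lowest, with 38.7, 41.5 and 37.8 CPM in total RNA and 2.32, 3.63 and 3.27 CPM in subpolysomes, which was 12.9-fold lower (log2 -3.69, SE 0.15, adjusted p = 6.21e-10). It lies (chromosome 1, 133655879 to 133660885) inside the span of Zc3h11a on the same strand (chromosome 1, 133619862 to 133661380), and Zc3h11a itself was at 0.60 (adjusted p = 1.06e-05; -0.36 on library totals). Reads of unspliced Zc3h11a could be counted as Zbed6, and their part in the value was not tested.

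mRNAs of secreted proteins were modestly lower in subpolysomes. Of 116 tested, 54 fell and 18 rose (46.6% and 15.5%, beside 35.1% and 32.6% of all genes), and the median was -0.39, or -0.32 relative to genes of the same protein length. Col4a1, of type IV collagen (chromosome 8, 11198423 to 11312826), had 27.8, 28.2 and 28.6 CPM in total RNA and 15.4, 11.1 and 11.7 CPM in subpolysomes (log2 -1.14, SE 0.12, adjusted p = 3.80e-06). Clu, the chaperone clusterin and the most abundant member, had 1787, 2526 and 2492 CPM in total RNA and 787, 955 and 927 CPM in subpolysomes (log2 -1.35, SE 0.13, adjusted p = 1.24e-06). The groups of libraries were apart for both genes.

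Fn1, fibronectin, had 185, 298 and 279.5 CPM in total RNA and 127, 191 and 178 CPM in subpolysomes (log2 -0.62, SE 0.17, adjusted p = 0.0066), and its groups overlapped; the call was lost without a filter on low counts (adjusted p = 0.0633). Cpe, carboxypeptidase E, was lower (log2 -0.70, SE 0.08, adjusted p = 7.23e-06). Cxcl1, a chemokine of 96 residues, rose instead, with 36.7, 33.7 and 44.3 CPM in total RNA and 155, 158 and 203 CPM in subpolysomes (log2 2.17, SE 0.12, adjusted p = 1.06e-08). The extremes of the list, Mmp2 (log2 2.63) and Col5a1, rested on under 1 CPM, with Col5a1 at 0 in all 3 subpolysome libraries. In polysomes relative to total RNA the class median was -0.30, and single members went apart: Col4a1 was at -2.39, Fn1 at -2.07 and Cpe at 0.29.

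The machinery of the ER showed shares near the background: 19 of 49 tested genes rose and 19 fell, with a median of 0.02 (-0.93 on library totals). Sec61g, the gamma subunit of the translocon with 68 residues, had 24.6, 24.6 and 27.1 CPM in total RNA and 195, 248 and 267 CPM in subpolysomes (log2 3.22, SE 0.11, adjusted p = 3.43e-10). Ost4, an oligosaccharyltransferase subunit of 37 residues, had 85, 82.3 and 86.7 CPM in total RNA and 634, 751 and 882 CPM in subpolysomes (log2 3.16, SE 0.11, adjusted p = 3.44e-10). Hspa5, the ER chaperone BiP, had 149.7, 145 and 151 CPM in total RNA and 129, 103 and 109 CPM in subpolysomes (log2 -0.39, SE 0.09, adjusted p = 0.00144), and P4hb, protein disulfide isomerase, had 318, 294 and 285 CPM in total RNA and 651, 671 and 636 CPM in subpolysomes (log2 1.13, SE 0.07, adjusted p = 3.62e-08; on library totals 0.17, adjusted p = 0.0864).

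mRNAs of membrane proteins of the urothelium, such as uroplakins, tetraspanins and claudins, leaned lower, with 35 of 63 falling and 11 rising (median -0.47). In polysomes 29 of the 63 were above total RNA and 20 below (median 0.25). Ly6e, a GPI-anchored protein, had 1092, 1154 and 1120 CPM in total RNA and 892, 882 and 955 CPM in subpolysomes (log2 -0.30, SE 0.07, adjusted p = 0.00311). Ly6d, a related protein of the list, had 1211, 1099 and 1145 CPM in total RNA and 1832, 2109 and 2487 CPM in subpolysomes (log2 0.90, SE 0.11, adjusted p = 9.20e-06), and -0.07 on library totals. So the abundant Ly6 genes lay on different sides of the median gene. Bst2, the highest member, rose (log2 1.16, SE 0.18, adjusted p = 7.89e-05) but did not pass on library totals (0.19, adjusted p = 0.337).

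Keratins and the cytoskeleton, which make up much of a urothelial cell, were mixed: 12 of 27 rose and 5 fell (median 0.18, -0.77 on library totals). Krt14, a basal keratin, had 1811, 1645 and 1542 CPM in total RNA and 4875, 5444 and 5411 CPM in subpolysomes (log2 1.65, SE 0.09, adjusted p = 1.10e-08). Krt5, its basal partner, had 7599, 6395 and 6222 CPM in total RNA and 4078, 3743 and 3905 CPM in subpolysomes (log2 -0.79, SE 0.10, adjusted p = 1.50e-05). The libraries of each keratin were apart, in opposite directions. In polysomes relative to total RNA, Krt14 was at 0.00 and Krt5 at -0.92. Actb, beta-actin, fell (log2 -0.91, SE 0.08, adjusted p = 4.89e-07).

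Glycolysis enzymes were divided gene by gene: 5 of 17 rose and 10 fell, with a median of -0.77. Pgk1 had 280.0, 259 and 265 CPM in total RNA and 1024, 1093 and 1131 CPM in subpolysomes (log2 2.01, SE 0.08, adjusted p = 5.10e-10), and Gpi1 had 755, 733 and 692 CPM in total RNA and 2346, 2798 and 3113 CPM in subpolysomes (log2 1.92, SE 0.11, adjusted p = 8.37e-09). Gapdh, often used as a reference gene, had 1308, 1254 and 1288 CPM in total RNA and 2537, 2699 and 3078 CPM in subpolysomes (log2 1.11, SE 0.09, adjusted p = 2.71e-07). Pfkl, of phosphofructokinase, had 264, 246 and 249 CPM in total RNA and 59, 51.6 and 64.7 CPM in subpolysomes, which was 4.33-fold lower (log2 -2.11, SE 0.09, adjusted p = 9.17e-10). Many glycolysis genes have processed pseudogenes, so their counts carry the same uncertainty as those of ribosomal proteins.

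mRNAs listed as stress mRNAs controlled by upstream reading frames in the leader leaned higher relative to the median gene. Of 19 tested, 9 rose and 4 fell (47.4% and 21.1%), with a median of 0.45 (-0.51 on library totals). Atf4, the transcription factor of the integrated stress response (chromosome 15, 80255184 to 80257541), had 256, 240.2 and 254 CPM in total RNA and 724, 680.0 and 808 CPM in subpolysomes, a rise of 2.95 times (log2 1.56, SE 0.08, adjusted p = 5.50e-09). Ddit3, its target CHOP, had 16.9, 16.5 and 16.8 CPM in total RNA and 74.6, 71 and 74.3 CPM in subpolysomes (log2 2.13, SE 0.08, adjusted p = 3.44e-10). Sat1, a polyamine acetyltransferase, had 656, 635 and 689 CPM in total RNA and 2218, 2360 and 3001 CPM in subpolysomes (log2 1.94, SE 0.11, adjusted p = 1.23e-08). Groups did not overlap in any of them, while Eif2ak1, an eIF2 kinase, was lower (log2 -1.23). Odc1, ornithine decarboxylase, did not pass (log2 0.16, SE 0.10, adjusted p = 0.179). It passed without subpolysome library 3 (0.25, adjusted p = 0.0316), with a filter of 5 CPM (0.24, adjusted p = 0.0464) and, in the opposite direction, on library totals (-0.79, adjusted p = 0.000306).

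Ferritin mRNAs, which carry an iron-responsive element in the leader that holds back initiation when iron is low, were close to total RNA relative to the median gene and lower on library totals. Fth1 had 564, 524 and 487 CPM in total RNA and 669, 576 and 558 CPM in subpolysomes (log2 0.19, SE 0.09, adjusted p = 0.0695), and Ftl1 had 1479, 1566 and 1534 CPM in total RNA and 1293, 1373 and 1506 CPM in subpolysomes (log2 -0.13, SE 0.08, adjusted p = 0.169). Fth1 passed with DESeq2 (adjusted p = 0.0141), upper-quartile factors (0.0330) and the stricter filter (0.0141), and its adjusted p was 0.0264 without subpolysome library 3. On library totals Fth1 was at -0.76 (adjusted p = 9.37e-05) and Ftl1 at -1.10 (adjusted p = 2.36e-08), both past the threshold as lower. In polysomes both were well below total RNA (log2 -2.48 and -2.18). Slc40a1, the iron exporter ferroportin, rose (log2 1.51, SE 0.15, adjusted p = 1.46e-06), and of the 8 tested mRNAs of this kind 3 rose and 1 fell, the latter Cdc42bpa (log2 -1.45).

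Immediate early and AU-rich mRNAs and mRNAs of splicing factors had medians slightly below that of all genes. Of 49 of the first kind 15 rose and 20 fell (30.6% and 40.8%; median -0.17), with Myc at -1.05 (adjusted p = 4.84e-06), Jun at -0.49 (0.0112) and Fosb at -1.52 (0.00177), while Btg1 was at 0.50 (0.000445; -0.44 on library totals). Of 35 splicing factors 11 rose and 17 fell (31.4% and 48.6%; median -0.22). Clk1, a kinase of SR proteins whose transcript is often held in the nucleus with introns, had 107, 96.9 and 80.5 CPM in total RNA and 405, 407 and 328 CPM in subpolysomes (log2 2.00, SE 0.12, adjusted p = 1.15e-08). Srrm2, a protein of nuclear speckles, had 165, 196 and 188 CPM in total RNA and 87.5, 83.7 and 77.3 CPM in subpolysomes (log2 -1.14, SE 0.08, adjusted p = 1.11e-07). The libraries of both were apart.

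Arid1a itself was at 99.2, 113 and 101 CPM in total RNA of WT organoids, scaled over the 12 WT and KO libraries, and at 66.6, 66.8 and 74.9 CPM in that of KO organoids. The subpolysome libraries held 54.9, 56 and 50.1 CPM (WT) and 69, 58.1 and 56.2 CPM (KO). The KO total RNA libraries were below every WT total RNA library, but not near 0. Which exons are deleted is not given in the labels, so the level does not check the genotype. In KO organoids the comparison of subpolysomes with total RNA, on separate libraries, called 64.6% of 13014 genes, 4065 higher (31.2%) and 4340 lower (33.3%). On library totals these were 1146 and 9059. Of 4156 genes higher in WT and tested in KO, 3625 were higher in KO (87.2%; 90.4% of the KO calls) and 2 lower. Of 4501 lower in WT, 3885 were lower in KO (86.3%; 89.9% of the KO calls) and 1 higher. KO medians were 2.88 for ribosomal proteins, 1.91 for other TOP mRNAs, 2.52 for snoRNA hosts, 1.01 for oxidative phosphorylation and -1.0 for giant proteins. Ribosomal protein genes took 36.9 ± 2.40% (SD, n = 3) of the KO subpolysome counts, and WT subpolysomes 35.6 ± 1.73%, so the shares overlapped. The other TOP mRNAs took 13.2, 11.9 and 11.3% of KO subpolysome counts, each below the WT libraries at 13.7, 13.9 and 13.6%. Their share was lower in KO total RNA too, with 5.47, 5.36 and 5.41% against 5.63, 5.87 and 5.68% in WT total RNA. These differences in shares were not tested.

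The difference between the genotypes was tested directly, with an interaction term in 1 fit of the 12 libraries. Of 13414 genes tested with edgeR, 4 (0.0298%) passed, and 871 had an unadjusted p under 0.05. DESeq2 called 13. Arid1a was one of the 4: subpolysomes stood at -0.95 against total RNA in WT and at -0.16 in KO (difference -0.78, adjusted p = 0.0292). The count fell to 0 without any 1 of WT total RNA libraries 1, 2 and 3, WT subpolysome library 3, KO total RNA libraries 2 and 3 or KO subpolysome libraries 2 and 3, and to 1 to 3 without any 1 of the others. With so few calls, no gene of the TOP, snoRNA host or giant protein lists among them, no single gene of these classes was told apart by genotype, which does not show that they were alike.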

How the data were processed

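Total RNA and gradient-fraction RNA of mouse bladder organoids was sequenced, with RNA purified with an RNeasy column kit, per the labels. The deposited values are whole-number counts per gene symbol, 24421 symbols in each library. The authors made these counts with Bowtie and HTSeq on mm10, per the submitters' processing notes. Not given in the sources used here were tool versions, annotation, strand setting, and whether poly(A) RNA was selected or ribosomal RNA removed. 18 of the 22 libraries are organoids; the other 4, labelled cancer, were not analysed here. Files held no unmatched columns.

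Counts were scaled with TMM factors, filtered with filterByExpr and tested with edgeR's quasi-likelihood test (edgeR 4.0.16, limma 3.58.1, R 4.3.3) on the groups compared, 3 against 3 libraries, with Benjamini-Hochberg adjustment over all genes tested and a threshold of 0.05. The comparison of polysomes with total RNA was added after seeing the data. Each log2 fold change is the fitted value. In the shallowest subpolysome library 1 CPM of its own total stood for 45.2 counts. Pairs of libraries within the WT total RNA and WT subpolysome groups differed by 11.9 to 63.1 chi-square per degree of freedom. WT polysome pairs differed by 79.6 to 168, KO total RNA pairs by 12.0 to 14.5 and KO subpolysome pairs by 61.6 to 247. All of these lie far beyond sampling noise. Rn45s made up 0.88, 1.72 and 5.59% of the counts of KO subpolysome libraries 1, 2 and 3. The procedure was tested on simulated data with 200 changed genes among 12785 genes for the WT comparison. It called 87.9% of genes changed 2-fold, 95.9% of those changed 4-fold and 0.103% of the unchanged genes. In the real WT comparison 67.7% of genes passed, and how the procedure performs when so many genes differ was not tested.

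Positions and lengths come from GENCODE M21 (GRCm38), matched by symbol. Protein lengths were planned from a protein table that was not used here, and were taken from the principal transcript of that annotation instead, the longest coding one where several qualify. Start windows are RefSeq's (GRCm38.p6).

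The members and gene lists were chosen with earlier results of these data known. The genes named are, first, the 10 with the largest rise and the 10 with the largest fall (called, without overlap of libraries, average log2 CPM of at least 4, no predicted models), then the highest, the lowest and the 2 most abundant members of each list, and a set of well-known members. Not all of them are described, and those named after their values were seen are marked as such. The alternatives were DESeq2 1.42.0, library totals, upper-quartile factors, leaving out Rn45s, no filter, a filter of 5 CPM, all 18 organoid libraries in 1 fit, the replicate number as a block, and leaving out each library.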

Additional observations from a re-analysis of the deposited data

Results flagged for a closer look

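For 4 genes the difference between subpolysomes and total RNA was not the same in WT and KO organoids, by an interaction term of genotype and fraction tested with edgeR over 12 libraries. For Arid1a, WT minus KO was -0.78 (log2, adjusted p = 0.0292), from -0.95 in WT and -0.16 in KO. For Ttll5, a tubulin polyglutamylase, it was 1.26 (adjusted p = 0.0292), from 1.62 and 0.37. WT total RNA had 41.8, 51.1 and 49.1 CPM and WT subpolysomes 107, 148 and 178 CPM of Ttll5, whereas KO total RNA had 18.6, 18 and 17.7 CPM and KO subpolysomes 21.6, 25.9 and 21.6 CPM.

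For C1s1, a complement protease, the difference was 4.86 (adjusted p = 0.0292). Its KO subpolysome libraries had 0.0280, 0 and 0.0366 CPM, against 0.648, 1.34 and 1.02 CPM in KO total RNA, so this value rests on counts near 0. For Shmt1, the cytosolic serine hydroxymethyltransferase, it was 1.5 (adjusted p = 0.0304), from 0.63 in WT (-0.32 on library totals) and -0.85 in KO. Ttll5, C1s1 and Shmt1 were named after their values were seen.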

How the results depend on the processing

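The count of 8746 genes called between WT subpolysomes and total RNA stayed within 1.5 times under every alternative. It was 8821 with DESeq2, 10111 on library totals, 7677 with the filter of 5 CPM and 7808 to 9028 without 1 library. The directions were less stable than the count: on library totals 7118 of the 8746 genes were called again, 1268 of them with the opposite sign. Medians of the ribosomal protein class above that of all genes ranged from 2.84 to 3.04. Larger moves, also above the median of all genes, included those of nuclear long noncoding RNAs (1.62, and 0.75 without a filter). Replication-dependent histones were at 1.22, and at 0.64 with the filter of 5 CPM. Selenoproteins were at 0.37, and at 0.73 with that filter. Cytoplasmic or other long noncoding RNAs (2.39) ranged from 1.88 to 2.74 and Snora genes (2.51) from 2.02 to 2.87. Genes with a symbol in Mir (0.88) ranged from -0.09 to 1.92, with a change of sign. Classes near the median gene, such as the ER machinery (0.02 to 0.21), moved by small amounts. The interaction count of 4 was 13 with DESeq2, 2 on library totals and 10 with the replicate block, and 0 to 3 without 1 library, with 584 to 1437 genes at an unadjusted p under 0.05. Of the genes described here, Rpl34 (-0.70), Tug1 (-0.66), Ly6d (-0.073), S100a6 (-0.055), Odc1 (-0.79), Fth1 (-0.76) and Btg1 (-0.44) changed sign on library totals. So did Shmt1 (-0.32), Zc3h11a (-0.36), Tmem55b (-0.73), Nbeal1 (-0.65), Usp34 (-0.56), Hottip (-0.53) and Trp53cor1 (-0.74). This follows from that scaling, which lowers every value by about the same amount. Of genes that had not passed, Ahnak was at 0.0035 with the filter of 5 CPM, and Hottip at -0.54 with the replicate block. Without 1 library Hottip ranged from -6.26 (without subpolysome library 3) to 1.10, and Trp53cor1 from -0.10 (without subpolysome library 2) to 0.47; the cause was not tested.

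Same-numbered total RNA and subpolysome libraries deviated together with r = 0.127, 0.060 and 0.048, and each correlated best with its own number, a hint from the data. They were not taken as pairs. With the replicate block the counts called were 8727 for WT, 8607 for KO, 8997 against polysomes and 9498 for polysomes against total RNA, and Fth1 passed (adjusted p = 0.0396).

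The amount of RNA per fraction was not measured, so no absolute change can be given. Counts of genes under about 1 CPM, such as Hottip, Rpl26 or most histones, set little precision. Reads shared with pseudogenes, overlapping genes or the opposite strand could not be separated.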

Other observations

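Genes with a symbol in Zfp, most of which encode C2H2 zinc finger proteins that bind DNA, were looked at after the values were seen. Of 323 tested, 171 (52.9%) were called higher in subpolysomes and 53 (16.4%) lower, beside 32.6% and 35.1% of all genes, and the median log2 fold change was 0.55 (-0.42 on library totals). They stood 0.74 above the genes of their own protein length classes. Polysomes relative to total RNA had 109 higher and 96 lower, with a median of 0.02. In KO organoids 167 were higher and 45 lower.

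Selenoprotein mRNAs, in which a UGA codon is read as selenocysteine, were divided: 9 of 18 rose and 4 fell, with a median of 0.34 (-0.61 on library totals). Sepw1, the short selenoprotein W with 88 residues, had 197, 195 and 202 CPM in total RNA and 1420.5, 1510.0 and 1713 CPM in subpolysomes (log2 2.97, SE 0.09, adjusted p = 2.65e-10). Txnrd3, a thioredoxin reductase with 615 residues, had 14.9, 15.9 and 14.4 CPM in total RNA and 4.50, 4.81 and 3.08 CPM in subpolysomes (log2 -1.86, SE 0.16, adjusted p = 5.81e-07). The libraries of each gene were apart, in opposite directions.

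Of 61 replication-dependent histone genes, whose main mRNAs end without a poly(A) tail, 13 were tested, and most held under 1 CPM. Of the 13, 6 rose and 0 fell (background 32.6% and 35.1%), with a median of 1.19. A histone gene that reached the filter only through subpolysomes had to be higher, so these counts are no result about the class. Solute carrier (Slc) genes were near the background, with 57 of 222 higher and 71 lower. None of the 15 listed mitochondrially encoded RNAs had a row in the tables.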
